A study of Mus musculus with 2 samples.

Results

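Imprinted genes are expressed from the copy inherited from one parent. The microRNAs (miRNAs) described here come from 3 imprinted chromosome regions outside the large Dlk1-Dio3 miRNA domain: Mir335 in Mest, Mir483 in Igf2, Mir675 in H19, and Mir296 and Mir298 beside Gnas. The members were chosen by gene name in the GENCODE M21 annotation, with no measured value in the rule but with earlier results of these data known, and number 5 of the 2202 annotated miRNA genes counted. Small RNAs of mature miRNA size were sequenced (microRNA-seq) from adrenal gland tissue. The mice were B6CASTF1/J females, an F1 cross of C57BL/6J with the wild-derived CAST/EiJ, at an age of 36 days. The animals formed 1 group of 2 libraries, with no treatment, second age or second tissue. The labels call the libraries biological replicates 1 and 2 from separately numbered females but give both 1 donor identifier, so a difference between them may be between animals or technical. Both parental alleles are pooled in each count, so allele of origin was not measured.

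A miRNA is cut from a hairpin precursor into a short strand that guides silencing proteins to messenger RNAs, mostly through its seed, bases 2 to 8. Mest, a paternally expressed gene, encodes a hydrolase-like protein and carries Mir335 in an intron. Igf2 and H19 are neighbours under a shared imprinting control region. Igf2, expressed from the paternal copy, encodes a fetal growth factor, while H19, expressed from the maternal copy, is a long noncoding RNA whose exon holds the Mir675 hairpin. In most mouse tissues both are abundant before birth and decline afterwards. Gnas encodes the stimulatory G protein alpha subunit, through which the pituitary hormone ACTH signals to the adrenal cortex. Nespas is a paternally expressed antisense transcript of that locus, and Mir296 and Mir298 lie on its strand.

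The 10 mature strands of the 5 genes are shown because the seed is what sets apart the messages each can pair with. The sequences are from RefSeq (GRCm38.p6, the mm10 assembly), all 5 genes matched, and capitals mark the seed.

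miR-335-5p: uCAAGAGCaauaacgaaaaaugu

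miR-335-3p: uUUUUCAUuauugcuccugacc

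miR-298-5p: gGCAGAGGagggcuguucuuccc

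miR-298-3p: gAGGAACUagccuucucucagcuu

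miR-296-5p: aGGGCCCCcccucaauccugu

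miR-296-3p: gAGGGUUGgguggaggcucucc

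miR-483-5p: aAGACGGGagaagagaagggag

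miR-483-3p: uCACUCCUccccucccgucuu

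miR-675-5p: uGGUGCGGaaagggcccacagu

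miR-675-3p: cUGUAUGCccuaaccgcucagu

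The 10 seeds were all different, and none of the other mature miRNAs among the 1738 in RefSeq carried any of them at bases 2 to 8. With the match shortened to bases 2 to 7, 4 other genes came in: Mir6986, Mir7646, Mir5621 and Mir3110. Their counts were 6, 0, 3 and 0 in replicate 1 and 0, 1, 0 and 0 in replicate 2. Each of those 4 genes thus had at most 6 counts in either library. The hairpins also stood alone: none shared a run of 20 bases with another annotated miRNA locus. Reads that mapped to several places, 28.5% and 30.6% of all reads in replicates 1 and 2, were counted for no gene.

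The hairpins of the 3 most abundant members are shown because the count of a gene is of reads anywhere in its hairpin. Capitals mark the 5p strand and then the 3p strand, whose reads the deposited counts do not separate.

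Mir335: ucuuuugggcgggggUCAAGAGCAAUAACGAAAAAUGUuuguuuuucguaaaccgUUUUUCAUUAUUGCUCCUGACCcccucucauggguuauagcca

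Mir298: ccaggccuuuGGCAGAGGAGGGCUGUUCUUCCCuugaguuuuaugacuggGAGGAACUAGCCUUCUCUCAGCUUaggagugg

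Mir296: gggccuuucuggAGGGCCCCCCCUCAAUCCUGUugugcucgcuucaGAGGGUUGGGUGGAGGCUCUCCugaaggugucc

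Positions are in mm10 with GENCODE M21. Mir335 (ENSMUSG00000065501.1, chr6:30741299-30741396, plus strand) lies in intron 2 of the 12-exon Mest transcripts. Mir483 (ENSMUSG00000070140.1, chr7:142654924-142654996, minus strand) lies in intron 2 of most annotated Igf2 transcripts. It also lies in intron 3 of Gm49394, a protein-coding model that overlaps Igf2 on the same strand. Mir675 (ENSMUSG00000076275.1, chr7:142577064-142577147, minus strand) lies in exon 1 of the 5-exon H19 transcripts and in an intron of another H19 model, 77776 bases from Mir483. Mir298 (ENSMUSG00000065410.1, chr2:174267504-174267585) and Mir296 (ENSMUSG00000065521.1, chr2:174267047-174267125) are 378 bases apart on the minus strand. The annotation places both outside any protein-coding or long noncoding gene, with Mir298 13651 bases past the annotated 3′ end of Nespas.

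Replicate 1 held 5397603 sense-strand miRNA counts and replicate 2 held 3029977, so that 1 count was worth 0.185 and 0.330 CPM. CPM is a gene's sense count per 1000000 sense miRNA counts of the library. The 5 neuroendocrine miRNA genes listed for the adrenal medulla, led by Mir375, all reached 10 counts in each library, the limit used here for detection. They summed to 32103 and 25898 CPM in replicates 1 and 2. Every gene on the liver, skin, red-cell, white-cell, endothelial and smooth-muscle lists also reached that limit, as did 2 of the 4 kidney and gut genes. Detection therefore could not check the tissue label. No miRNA on these lists defines the cortex. The lists for other cells differed between the libraries. Liver Mir122 had 1503 and 146 CPM, the 3 red-cell genes 1210 and 576, the 4 kidney and gut genes 136 and 57.4, and endothelial Mir126a 133209 and 69285 in replicates 1 and 2. The 4 white-cell genes had 1345 and 2049 CPM, skin Mir203 822 and 3691, and the smooth-muscle pair 30240 and 59237, higher in replicate 2. None of the listed genes had 0 counts in both libraries, and whether cell makeup had a part in the member ratios below was not tested.

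The 5 members ran from an abundant miRNA gene of the gland, Mir335, to one at the edge of detection, Mir675. Mir335, which is known for targeting messages of cell migration and proliferation genes, had 24403 counts in replicate 1 and 24527 in replicate 2. These counts correspond to 4521 CPM (95% Wilson interval 4465 to 4578) and 8095 CPM (7995 to 8196). The intervals, which cover counting error only, did not overlap, and replicate 2 was the higher. The mean was 6308 ± 2527 CPM (SD, n = 2), rank 30 of 2202 genes, with rank 36 in replicate 1 and 23 in replicate 2. In bulk tissue, fewer cells of a type and less RNA per cell cannot be told apart.

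The Gnas-locus pair came next in level. Mir298 had 2254 and 553 counts in replicates 1 and 2, or 418 CPM (401 to 435) and 183 CPM (168 to 198), with a mean of 300.1 ± 166 CPM (SD, n = 2) and rank 127. Mir296, known from studies of blood vessel growth, had 1256 and 291 counts, or 233 CPM (220.2 to 246) and 96.0 CPM (85.6 to 108). Its mean was 164 ± 96.6 CPM (SD, n = 2), rank 158. Both genes were higher in replicate 1, the opposite of Mir335.

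The Igf2-H19 pair was low. Mir483, the intronic miRNA of Igf2, was counted 101 times in replicate 1 and 11 times in replicate 2, which gives 18.7 CPM (15.4 to 22.7) and 3.63 CPM (2.03 to 6.50). Its mean was 11.2 ± 10.7 CPM (SD, n = 2), rank 287, and replicate 1 was again the higher. Mir675, the exonic miRNA of H19, had 4 counts and 1 count, or 0.741 CPM (0.288 to 1.91) and 0.330 CPM (0.0583 to 1.87). These intervals overlapped. Mir675 was the only member under 10 counts in both libraries, so 4 of the 5 counted as detected, where 15.4% of all 2202 genes did. The ratio of its CPM, replicate 1 over replicate 2, was 2.25 with an exact 95% interval of 0.222 to 111, and a difference was not detectable at this depth.

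**Figure D1:**
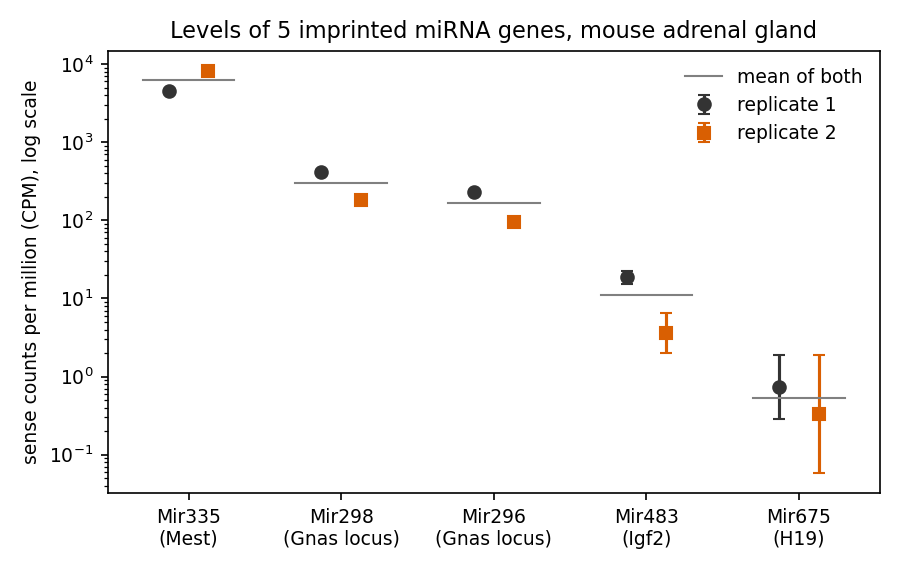
Sense CPM of each member in replicate 1 (circles) and replicate 2 (squares), on a log axis, with 95% Wilson intervals for counting error and a line at the mean. Mir335 is the only member that is higher in replicate 2 (8095 against 4521 CPM); Mir298, Mir296 and Mir483 are higher in replicate 1, and the intervals of Mir675 overlap.

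Mature miRNAs are of nearly the same length (21 to 24 bases here), so CPM was compared between genes without division by hairpin length. Reads per molecule may differ between sequences and were not calibrated. The spread between the libraries, used below as a limit, does not cover such a difference. The order Mir335, Mir298, Mir296, Mir483, Mir675 was the same in both libraries, and also per hairpin base. Geometric means fell 21.9-fold from Mir335 to Mir298, 1.85-fold from Mir298 to Mir296, 18.1-fold from Mir296 to Mir483 and 16.7-fold from Mir483 to Mir675. The pooled spread between the libraries, a coefficient of variation of 41.6% over all genes tested, sets a limit of 2.26-fold for 2 genes. That limit treats the genes as independent, although both of a pair are measured in the same libraries. The step from Mir298 to Mir296 was under it, and the other 3 steps were beyond it. Within each library, Mir298 had more reads than Mir296 by more than counting error. The 1 count of Mir675 in replicate 2 makes the last step imprecise.

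Together the 5 genes held 0.519% of the sense miRNA counts in replicate 1 (95% Wilson interval 0.513 to 0.525%) and 0.838% in replicate 2 (0.828 to 0.848%), a mean of 0.678% ± 0.225 (SD, n = 2). Mir335 made up 87.1% of the members' counts in replicate 1 and 96.6% in replicate 2, so the sum followed Mir335 alone. All 5 genes had 0 antisense counts in both libraries, and their counts without regard to strand equalled their sense counts.

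The libraries were compared gene by gene to ask whether the members moved together. Ratios used TMM scaling. The 434 genes whose counts in the libraries summed to 10 or more were each tested by a two-sided exact binomial test, and p-values were adjusted over all 434 by the Benjamini-Hochberg method. This test compares 2 libraries against counting error and not conditions. Mir335 was 2.21-fold higher in replicate 2 (95% interval 2.17 to 2.25). Mir298 was 1.86-fold higher in replicate 1 (1.69 to 2.04), Mir296 1.96-fold (1.73 to 2.24) and Mir483 4.09-fold (2.24 to 8.64). The adjusted p in the exact test was 0 at the precision of the computation for Mir335, 1.2e-42 for Mir298, 7.4e-28 for Mir296 and 2.9e-07 for Mir483.

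All 4 tested members were called: Mir298, Mir296 and Mir483 towards replicate 1, and Mir335 towards replicate 2. The same rule called 58.5% of all genes tested, 30.2% higher in replicate 1 and 28.3% higher in replicate 2, so a call was common among adrenal miRNA genes at these depths. The median difference, in either direction, was 2.08-fold over the 4 members and 1.50-fold over all 434 genes. In either direction, 95 of the 434 genes had a larger fold than Mir335 and 29 a larger fold than Mir483.

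With the spread between the libraries as the error in place of counting error, no member was called. That spread was estimated from the same 2 libraries that were compared, so their difference is itself part of the error, and few calls could be made by construction. With edgeR's common dispersion in an exact negative binomial test, the adjusted p was 0.999 for Mir335, Mir298 and Mir296 and 0.808 for Mir483, whose unadjusted p was 0.0423. That test called 0 of the 434 genes (0.0%), with 24 at an unadjusted p under 0.05. With DESeq2's dispersions 0 were called, with 10 under 0.05, and the unadjusted p of Mir483 in the exact test was 0.145. The ratio of Mir483 was the only 1 of the 4 beyond 3.16-fold, the range the pooled spread gives for 95% of ratios. That range leaves out counting error, and the counting interval of Mir483, 2.24 to 8.64, spans it. The scaling matters for the size: total counts in place of TMM moved every ratio by 0.30 on the log2 scale towards replicate 1, giving 1.79-fold for Mir335, 2.29-fold for Mir298, 2.42-fold for Mir296 and 5.02-fold for Mir483, each in the same direction as before.

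**Figure D2:**
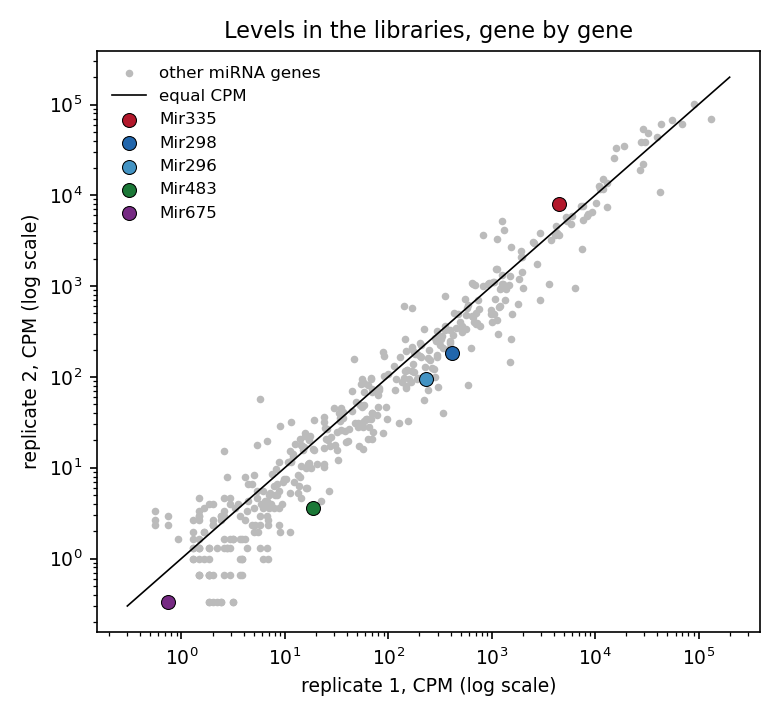
CPM in replicate 1 against replicate 2 on log axes for the tested miRNA genes with a count in both libraries (grey) and the 5 members (coloured, Mir675 included though it was not tested), with a line of equal CPM. Mir335 lies above the line, and Mir298, Mir296, Mir483 and Mir675 lie below it.

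Hairpin GC content differed with the direction of these ratios. Among the members higher in replicate 1 it did not follow the size of the ratio. Mir335, the member higher in replicate 2, had a hairpin of 42.9% GC. The members higher in replicate 1 had 53.7% (Mir298), 63.3% (Mir296) and 58.9% (Mir483). Over 284 genes with at least 100 counts, the log2 ratio of replicate 1 over replicate 2 rose by 0.29 for each 10 points of GC. Its Spearman's rho with GC was 0.348, across genes that share the 2 libraries and are not independent. The median log2 ratio was 0.21 in the 144 genes at 50% GC or more and -0.34 in the 140 genes below. With that line removed, an alternative chosen after seeing the data, Mir335 was still 1.94-fold higher in replicate 2, and Mir298, Mir296 and Mir483 were 1.69-fold, 1.47-fold and 3.36-fold higher in replicate 1. All 4 calls stayed in the exact binomial test, the largest adjusted p being 2.6e-05 for Mir483. With the line removed, 255 of the 434 genes tested were called, against 254 with it kept. Keeping a call is therefore not read as particular to the members. The line used GC of the whole hairpin, and GC of the mature strands was not tried. The measures can differ: for Mir298 the 5p strand had 65.2%, the 3p strand 50% and the hairpin 53.7%.

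**Figure D3:**
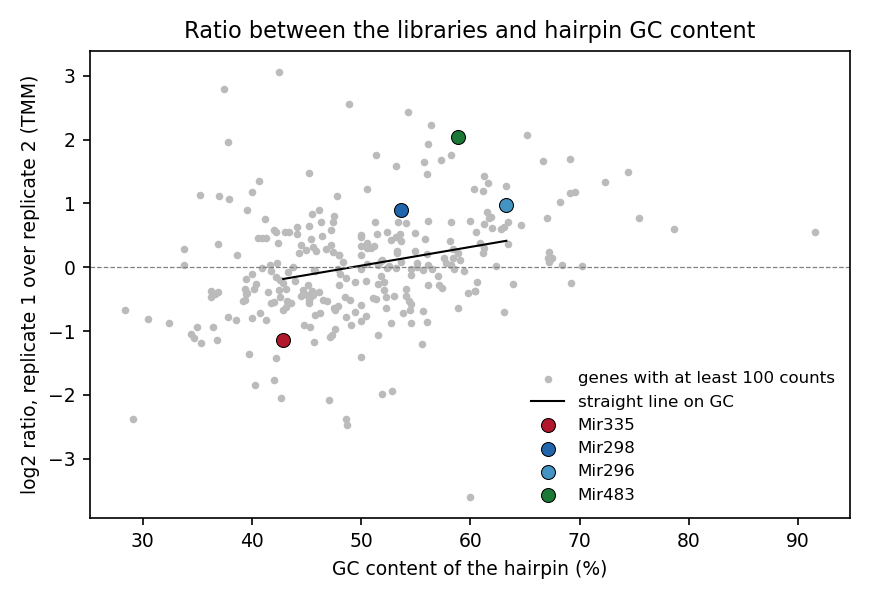
Log2 ratio of replicate 1 over replicate 2 (TMM) against hairpin GC content for genes with a summed count of 100 or more (grey) and the 4 tested members (coloured), with the fitted line drawn between the members. The ratios of Mir335 (-1.14), Mir298 (0.89), Mir296 (0.97) and Mir483 (2.03) each lie farther from 0 than the line at their GC content.

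Ratios between members within a library need no scaling, since both genes are divided by the same total. Of the 6 pairs among the 4 detected members, 5 changed between the libraries in Fisher's exact test, two-sided, adjusted over the 6 pairs. The test covers counting error between 2 libraries only, treats reads as independent molecules, and no pair was tested against the spread between libraries. The share of all gene pairs that would change in it was not computed. Of the 434 single genes tested, 58.5% were called against counting error, so 5 of 6 pairs is not read as particular to the members. Mir335 had 10.8 reads for each read of Mir298 in replicate 1 and 44.4 in replicate 2, a 4.10-fold shift (95% Wald interval 3.73 to 4.50, adjusted p = 4.8e-231 in Fisher's exact test). Against Mir296 the shift was 4.34-fold (3.81 to 4.93) and against Mir483 9.23-fold (4.95 to 17.2), both towards Mir335 in replicate 2. Mir483 was also lower relative to the Gnas-locus pair in replicate 2, on 11 counts of Mir483. The shift was 2.25-fold against Mir298 (1.20 to 4.23, adjusted p = 0.0107 in Fisher's exact test) and 2.13-fold against Mir296 (1.13 to 4.02, adjusted p = 0.0188 in the same exact test). Both of these shifts were smaller than the 3.16-fold that the pooled spread gives for the ratio of a single gene. A shift between 2 genes carries the spread of both, so for independent genes its range would be wider than 3.16-fold. That wider range was not computed, so none of the pair shifts, those of Mir335 included, is shown to exceed the spread.

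Mir298 and Mir296 were the pair whose shift did not pass the test. Mir298 had 1.79 reads for each read of Mir296 in replicate 1 and 1.90 in replicate 2. Its share of the pair's 3510 and 844 counts was 64.2% (95% Wilson interval 62.6 to 65.8%) and 65.5% (62.3 to 68.7%). The ratio of Mir298 to Mir296 reads was 1.06-fold higher in replicate 2, with an interval from 0.904 to 1.24 (adjusted p = 0.496 in Fisher's exact test). Shifts beyond these bounds lie outside the counting interval. With the GC trend removed, the log2 ratios of the 2 genes were 0.76 for Mir298 and 0.56 for Mir296.

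To set the pair beside others, neighbouring miRNA genes within 1000 bases on the same strand were taken where both had at least 100 counts, a comparison chosen after the pair's values were seen. There were 61 such pairs, 22 of them in Dlk1-Dio3. The log2 ratios of Mir296 and Mir298 differed by 0.08, where the median difference was 0.68 over the 61 pairs and the highest 2.60. In 1 pair, Mir302b and Mir302a, the ratios were closer. With the GC trend removed, Mir296 and Mir298 differed by 0.20, the median was 0.74 and 14 of the 61 pairs were closer, so the place of the pair near the low end depends on that step. Neighbouring pairs share the libraries, and many genes enter 2 pairs, so this is a description and no test was made of it.

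**Figure D4:**
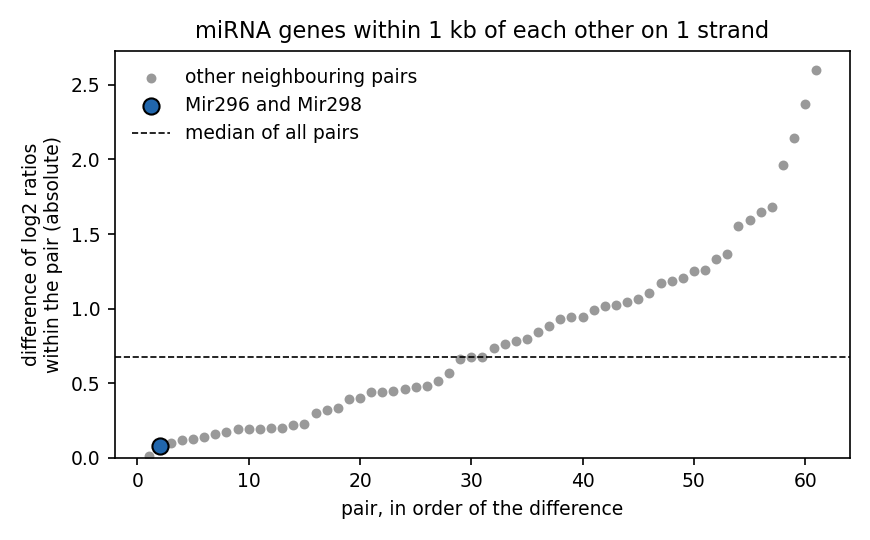
Absolute difference of the log2 ratios (replicate 1 over replicate 2) within each of 61 pairs of miRNA genes at most 1000 bases apart on the same strand, in increasing order, with a dashed line at the median of 0.68. The pair Mir296 and Mir298, at 0.08, is the second from the left, before any correction for GC content.

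The pair is alone in its neighbourhood: within 500 kb, the only other annotated miRNA gene is Gm27591 on the opposite strand, with 0 counts in both libraries. No miRNA gene other than Mir483 and Mir675 is annotated within 500 kb of either of those. Near Mir335, the nearest are Mir29a and Mir29b-1 on the opposite strand, 321263 and 321626 bases away, a pair known for targeting collagen messages. Mir29a had 8306 and 5932 CPM and Mir29b-1 33.0 and 12.2 CPM in replicates 1 and 2. Both were thus higher in replicate 1 by CPM, unlike Mir335.

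By levels in both libraries, the genes most like Mir335 were Mir98, Mir411 and Mir27b, at distances of 0.52, 0.61 and 0.67 (Euclidean, log2(CPM + 1), 2 libraries). None of the 3 had as large a gap between libraries, Mir98 having 5202 and 5798 CPM. Mir298 was nearest to Mir144 of the red-cell list (436 and 169 CPM, distance 0.13), Mir25 (387 and 202.0) and Mir188 (392 and 234). Mir296 was nearest to a miRNA-type gene named Snord43 (193 and 96.4 CPM, distance 0.27), Mir381 (280.5 and 100.3) and Mir3102 (190.3 and 94.4). Mir483 was nearest to Mir702 (22.6 and 4.29 CPM, distance 0.32), Mir200b (14.3 and 4.62) and Mir219a-1 (16.5 and 5.94). Mir411, Mir27b and Mir219a-1 each share 20 bases with 1 other annotated miRNA locus, so reads mapped to several places may be missing from their counts. With 2 libraries, likeness means a similar level and a similar ratio and no more.

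The Dlk1-Dio3 domain on chromosome 12 held 59 annotated miRNA genes on the plus strand, of which 1, Mir127 (12005 and 11758 CPM), exceeded Mir335 in mean CPM. In replicate 1 alone 3 did, Mir127, Mir379 and Mir411, and in replicate 2 alone Mir127 did. By mean CPM 18 genes of the domain were above Mir298 and 23 above Mir296, and 23 lay between Mir296 and Mir483. The domain held 4.09% ± 0.206 (SD, n = 2) of the counts, and 49 of its 59 genes were detected. Of its 50 tested genes, 16 were called towards replicate 1 and 16 towards replicate 2 in the binomial test, with a median log2 ratio of -0.02, against 0.93 over the 4 tested members and 0.08 over all genes. The 4 members ran from -1.14 (Mir335) to 2.03 (Mir483), and the difference between these medians was not tested. The Sfmbt2 cluster, a rodent-specific imprinted cluster, held 119 genes, 7 of them detected, and its highest, Mir467d, had 337 and 211 CPM. In mean CPM 0 of its genes exceeded Mir298 and 2 exceeded Mir296. In replicate 2 alone Mir467d and Mir467e exceeded Mir298, and in replicate 1 alone 0 did. Of the 9 Sfmbt2 genes tested, 1 was called towards replicate 1 and 5 towards replicate 2 in the binomial test, with a median log2 ratio of -1.04. Over all 434 genes tested, 30.2% and 28.3% were called in those directions. Of the 119 genes, 116 share 20 bases with another annotated miRNA locus and can lose reads to multiple mapping. In Dlk1-Dio3, 9 of the 59 genes share such a run and can lose reads in the same way. None of the 5 members shares such a run, by a comparison of annotated miRNA loci only.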

How the data were processed

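The authors deposited 1 table of raw counts for each library, with 3 count columns and 4 summary entries. Per the notes deposited with each library, reads were mapped to mm10 and counted on GENCODE M21. No aligner, counter or trimming step is given in the sources used here. The columns have no header; as each adds to the same total, they were read as counts without strand, sense and antisense. Sense counts were used. Summary entries (unmapped reads 26.0% and 22.3%, several places 28.5% and 30.6%, no miRNA gene 6.88% and 6.86% in replicates 1 and 2) stayed out of library sizes and tests. PCR duplicates cannot be recognised.

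TMM factors and the common dispersion (intercept only) came from edgeR 4.0.16, with DESeq2 1.42.0 as an alternative, in R 4.3.3. A prior of 0.5 counts, a minimum of 10 counts over both libraries and a threshold of 0.05 were used. Exact binomial and Fisher tests used scipy 1.17.1, adjustment statsmodels 0.14.6. The ratio step was tested on simulated data that held counting error only, so that check does not cover the spread between the libraries. Named genes were the 5 members, the 3 nearest genes of each detected member, miRNA genes within 500 kb, those sharing seeds, and the highest gene of each other imprinted region. Mir302a, Mir302b, Mir379, Mir411, Mir467e and the match to bases 2 to 7 were added after values were seen. The members and lists were chosen with earlier results of these data known.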

Additional observations from a re-analysis of the deposited data

How the results depend on the processing

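The ratios of Mir335, Mir298, Mir296 and Mir483 kept their direction under all 10 alternatives (total counts, DESeq2 size factors, minimums of 1 count over both or 10 in each library, counts without strand, a prior of 2 counts, without Mir126a, GC trend removed and the 2 dispersions). The log2 ratio of replicate 1 over replicate 2 ranged from -1.22 to -0.84 for Mir335, 0.76 to 1.19 for Mir298, 0.56 to 1.28 for Mir296 and 1.75 to 2.33 for Mir483. The 2 dispersions enter the test and not the ratio, so they could not change a direction. The calls were lost where the spread between the libraries replaced counting error. With the common dispersion and with DESeq2's dispersions the log2 ratios were the main ones, -1.14, 0.89, 0.97 and 2.03, none was called (exact test, adjusted p from 0.808 to 1), and the count of called genes went from 254 to 0 in both. The 6 pair ratios kept their side of the threshold with all 10 pairs adjusted together. Without strand they could not change, because the members' counts were the same as their sense counts. With the GC trend removed, the log2 ratios of Mir296 and Mir298 differed by 0.20 in place of 0.08, and 14 of 61 neighbouring pairs were closer in place of 1. Levels and the shared total stayed within 1 SD of the main values without strand, with TMM sizes and without Mir126a. That SD is of 2 differing libraries and is wide. Without strand, mean Mir335 went from 6308 to 7790 CPM and the shared total from 0.678% to 0.839%. The order held per hairpin base and in each library alone. The number of members detected went from 4 at a minimum of 10 counts to 4 at 5 counts and 3 at 50. Leaving out a library gives the single values of the other, with no error; for all members together, 0.519% or 0.838%. Mir675 had too few counts for a test. No paired analysis was possible because there is 1 group.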
